A study of Mus musculus with 9 samples.

Results

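STAT3 and STAT6, with the receptor chains and kinases that switch them on, were followed through 7 genes in CD8+ OT-1 T cells: the receptor chains Il6ra, Il6st and Il4ra, the kinases Jak1 and Jak2, and the transcription factors Stat3 and Stat6. They were taken by gene symbol from a table of 750 genes, and all 7 were measured in all 9 samples. RNA was counted on an nCounter with an immune gene panel, in which each transcript is counted directly through a probe that carries a colour barcode. The samples fell into 3 groups of 3, each kept for 24 h before the RNA was read: OT-1 alone, a macrophage co-culture that added OVA-pulsed macrophages, and a tumor co-culture that added both OVA-pulsed macrophages and CT2A-TRP2-B2mKO tumor cells.

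All T cells came from OT-1 mice, whose transgenic T cell receptor recognises the SIINFEKL peptide of ovalbumin (OVA). Splenocytes of all 3 groups had been primed with 1 µM of that peptide for 48 h in IL-2 at 50 IU per ml, and the purified CD8 T cells were then kept in IL-2 for 4 days, so OT-1 alone is a group of primed cells. The macrophages, grown from bone marrow monocytes, had been loaded with 10 µM OVA peptide for 4 h. CT2A-TRP2-B2mKO is a mouse glioma line without OVA, made to express TRP2, from which single cells that had lost surface MHC-I after B2m knockout were sorted. The labels give 5 T cells per macrophage and 10 per tumor cell, and the methods give other ratios. IL-2 during the 24 h is stated for OT-1 alone, and whether the co-cultures held it is unclear. Both co-cultures met OVA peptide again on the macrophages, so that against OT-1 alone contact with macrophages, antigen and a possible difference in IL-2 cannot be told apart. CD8+ cells were sorted from the co-cultures before RNA was counted. For the study's mice in general the methods give females and a range of ages in weeks, but neither the age nor the number of T cell donors is given for this experiment, nor whether the 3 samples of a group came from separate animals, so the p-values measure only the spread between these samples. No group held tumor cells without macrophages.

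IL-6 binds its receptor IL-6Rα and then gp130, the chain that the family shares, and JAK kinases bound to gp130 phosphorylate mainly STAT3. IL-4 binds IL-4Rα, which pairs with the common γ chain or with IL-13Rα1, and JAK kinases there phosphorylate mainly STAT6. In T cells, STAT3 is known for its part in survival and memory, STAT6 for its part in type 2 responses, and SOCS proteins, induced by the same signals, damp both arms. The RNA level of these genes does not measure phosphorylation of any STAT.

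Levels below are log2 normalized counts and differences are differences of their group means, so that a difference of 1 is a doubling. Recovered depth ran from 697595 to 1185958 counts per sample in 8 samples and was 132070 in macrophage co-culture replicate 2, whose values were therefore scaled up the most and whose low genes rested on few counts. T cell markers were high in all 9 samples, with a median log2 level of 11.53 to 12.54 over 9 genes, and their summed normalized counts ran from 48053 to 49887 in OT-1 alone, from 64990 to 65562 in the macrophage co-culture and from 70701 to 75537 in the tumor co-culture. Against OT-1 alone limma called 6 of these 9 higher in the tumor co-culture (14.5% of all genes). In the macrophage co-culture it called 5 higher (11.9% of all genes) and 1 lower (6.53%). The part of the T cell markers in the member differences was not tested. The median difference of all 750 genes was 0.40 in the tumor co-culture and 0.66 in the macrophage co-culture against OT-1 alone, and it was -0.12 between the co-cultures. Without the shallow macrophage co-culture replicate 2 the second and the third of these medians were 0.20 and 0.17, so that 1 sample set most of the one and the sign of the other. Over the 371 genes with a mean of at least 100 normalized counts it was 0.21, 0.04 and 0.15. Both comparisons against OT-1 alone use the same 3 control samples. Because RNA was pooled over the sorted cells, fewer cells of a kind and less RNA per cell cannot be told apart.

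The windows at the start sites of the 4 members that passed a test below are shown so that the palindrome that STAT dimers are known to bind could be looked for beside the changes. All 7 members matched a window of 300 bases (250 before and 50 after the annotated start) in RefSeq on GRCm38.p6, where Stat3 is at chr11:100939491-100939790 on the minus strand, Stat6 at chr10:127642736-127643035 on the plus strand, Il6st at chr13:112463820-112464119 on the plus strand and Il4ra at chr7:125552021-125552320 on the plus strand. They are written 5′ to 3′ along the gene's strand, and capitals mark the GC box, GGGCGG on either strand.
Stat3: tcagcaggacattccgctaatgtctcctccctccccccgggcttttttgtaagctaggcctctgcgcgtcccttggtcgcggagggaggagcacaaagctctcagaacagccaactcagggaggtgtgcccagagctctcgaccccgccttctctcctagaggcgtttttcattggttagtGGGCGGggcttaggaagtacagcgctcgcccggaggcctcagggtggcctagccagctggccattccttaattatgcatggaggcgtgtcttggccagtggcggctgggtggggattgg
Stat6: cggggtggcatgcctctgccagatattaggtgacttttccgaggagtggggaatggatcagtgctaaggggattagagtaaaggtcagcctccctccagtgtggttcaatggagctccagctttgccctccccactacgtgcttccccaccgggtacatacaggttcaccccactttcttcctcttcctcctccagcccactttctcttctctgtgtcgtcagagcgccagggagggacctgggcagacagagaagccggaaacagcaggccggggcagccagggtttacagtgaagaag
Il6st: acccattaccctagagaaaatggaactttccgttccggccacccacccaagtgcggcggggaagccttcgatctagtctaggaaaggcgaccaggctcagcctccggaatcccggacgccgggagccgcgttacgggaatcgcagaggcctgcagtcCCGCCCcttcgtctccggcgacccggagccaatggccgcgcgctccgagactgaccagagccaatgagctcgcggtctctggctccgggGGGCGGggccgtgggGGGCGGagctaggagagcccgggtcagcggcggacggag
Il4ra: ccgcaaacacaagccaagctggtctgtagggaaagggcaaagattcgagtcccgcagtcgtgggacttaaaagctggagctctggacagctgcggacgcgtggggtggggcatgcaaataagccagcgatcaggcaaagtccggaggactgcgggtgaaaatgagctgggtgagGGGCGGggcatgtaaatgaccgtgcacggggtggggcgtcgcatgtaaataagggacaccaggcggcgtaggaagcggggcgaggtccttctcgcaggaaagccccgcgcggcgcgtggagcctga
A GC box stood in 5 of the 7 windows, all but Stat6 and Il6ra, against 35.7% of 32851 windows of this length. Counted from the start site, with no base 0, its first base was at -69 in Stat3, at -76 in Il4ra and at -93, -4 and 12 in Il6st. The palindromic STAT element was searched with its arms TTC and GAA parted by 3 bases and by 4 bases, the wider spacing being the one STAT6 is known to prefer. Neither form was found in any of the 7 windows, against 8.30% and 6.95% of all windows, which says only that these letters are not in these 300 bases. Of the other elements searched on both strands, the cyclic AMP response element TGACGTCA was in the Jak1 window (1.79% of all windows) and an NF-κB-like element, GGGA and CC parted by 4 bases, was in the Stat6 and Il6ra windows (20.7%). The AP-1 element TGANTCA (7.81%) and an interferon-response-like element, GAAA repeated after 2 bases (3.44%), were in 0 of 7. The GC share of the member windows ran from 57.3% in Stat6 to 81.0% in Jak2, above the median of 52.7% over all windows.

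In T cells of the tumor co-culture, Stat3, Stat6 and Il6st RNA was higher than in OT-1 alone and Il4ra RNA was lower, the Stat6 difference turning to -0.083 when each sample was centred on its median. In the macrophage co-culture, Il6st was higher and Il4ra lower, and between the co-cultures Stat3 was higher where tumor cells were present. Under that centring limma called 0 of 7 members in any comparison (2, 1 and 1 at an unadjusted p under 0.05). The median level of all genes was 7.80 in the shallow macrophage co-culture replicate 2 and 6.09 to 6.88 in the other samples. Centring therefore lowered that sample the most. Il4ra in the tumor co-culture against OT-1 alone then differed by -1.11, further from 0 than as deposited, and still did not pass. The part of that 1 sample in the lost calls was not tested. Jak1, Jak2 and Il6ra passed no test. By limma's test, 4 of 7 members passed in the tumor co-culture against OT-1 alone (18.4% of all 750 genes did), 3 of them higher (14.5% of all genes) and 1 lower (3.87%). In the macrophage co-culture against OT-1 alone 2 of 7 passed (18.4% of all genes), 1 higher (11.9%) and 1 lower (6.53%). Between the co-cultures 1 of 7 passed (3.20% of all genes), and it was higher (2.67%). The median difference of the 7 members was 0.43, 0.15 and 0.10 in those comparisons.

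**Figure D1:**
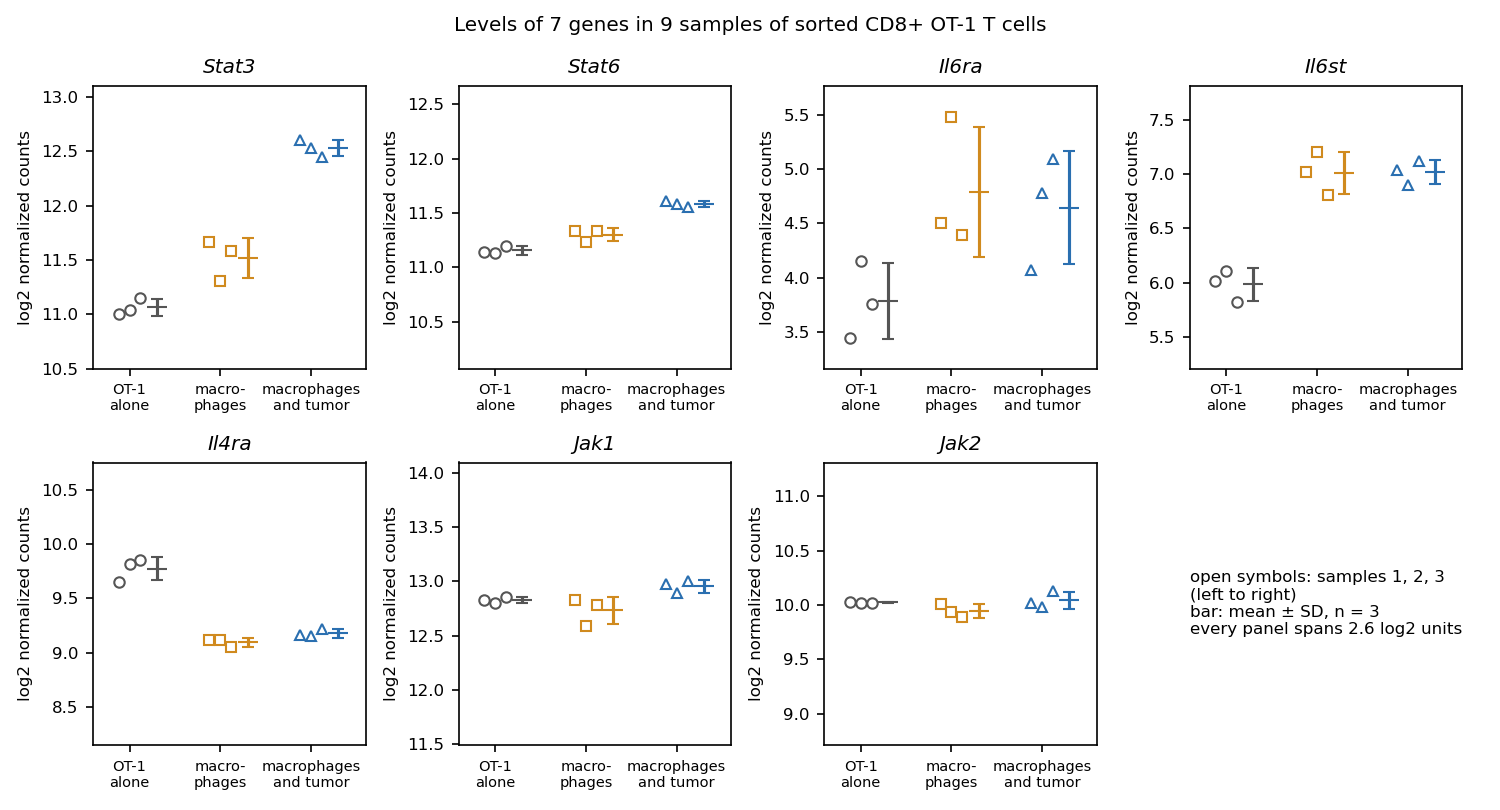
Log2 normalized counts of the 7 genes in each of the 9 samples, 1 panel per gene, with replicates 1 to 3 from left to right as open symbols and the group mean ± SD (n = 3) beside them, every panel spanning the same range and the co-cultures named by the cells added. Stat3 sits between 12.45 and 12.60 in the 3 samples of the tumor co-culture, above the other 6 samples, while Il6st and Il4ra separate OT-1 alone from both co-cultures.

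Il6st encodes gp130, the signalling chain shared by IL-6, IL-11, LIF, oncostatin M and IL-27. Its log2 level was 6.02, 6.11 and 5.82 in OT-1 alone, 7.02, 7.20 and 6.81 in the macrophage co-culture, and 7.04, 6.90 and 7.12 in the tumor co-culture. All 6 co-culture samples lay above all 3 samples of OT-1 alone, and the co-cultures overlapped each other. The difference from OT-1 alone was 1.04 (SE 0.13, 2.05-fold, adjusted p = 0.00607 from limma, n = 3 per group) in the tumor co-culture. In the macrophage co-culture it was 1.03 (SE 0.13, 2.04-fold, adjusted p = 0.00639 from limma), and it was 0.93 (adjusted p = 0.00926 from limma) without replicate 2, in which the level rested on 23 recovered counts. Between the co-cultures Il6st differed by 0.01, with a 95% interval of -0.30 to 0.32. The levels lie near 100 normalized counts, and a floor at that value lowered the differences from OT-1 alone to 0.38 and 0.37 and ended both calls. Quantile normalization between samples lowered them to 0.53 and 0.18 and also ended both.

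Il6ra, the chain that binds IL-6 itself, was measured at few counts in every sample. Its log2 level was 3.45, 4.15 and 3.76 in OT-1 alone, 4.50, 5.48 and 4.39 in the macrophage co-culture, and 4.07, 4.78 and 5.09 in the tumor co-culture. These values rest on 7 to 27 recovered counts per sample. The highest, 5.48 in macrophage co-culture replicate 2, rests on 7 counts. The samples in the macrophage co-culture lay above those of OT-1 alone, by 1.00 (95% interval 0.11 to 1.90, adjusted p = 0.606 from limma), and those in the tumor co-culture overlapped OT-1 alone, with a difference of 0.86 (95% interval -0.04 to 1.76). Without replicate 2 the first difference was 0.66. Between the co-cultures the 95% interval ran from -1.04 to 0.75.

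Il4ra encodes IL-4Rα, the chain that docks STAT6 and serves both IL-4 and IL-13. Log2 levels of Il4ra were 9.65, 9.82 and 9.85 in OT-1 alone, 9.12, 9.12 and 9.05 in the macrophage co-culture, and 9.16, 9.15 and 9.22 in the tumor co-culture. The 3 samples of OT-1 alone were the highest, with no overlap with either co-culture. Il4ra fell by 0.60 (SE 0.08, 1.51-fold lower, adjusted p = 0.00719 from limma) in the tumor co-culture and by 0.68 (SE 0.08, 1.60-fold lower, adjusted p = 0.00443 from limma) in the macrophage co-culture. Between the co-cultures it differed by 0.08 (95% interval -0.11 to 0.27), although the tumor samples lay above the others. The fall in the tumor co-culture narrowly missed the threshold without tumor co-culture replicate 2 (adjusted p = 0.0517) and without OT-1 alone replicate 2 (adjusted p = 0.0538), both from limma.

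Jak1, which serves both the gp130 and the IL-4Rα chains, was close to level across the groups. Its log2 level was 12.83, 12.80 and 12.86 in OT-1 alone, 12.83, 12.59 and 12.78 in the macrophage co-culture, and 12.98, 12.89 and 13.00 in the tumor co-culture. The tumor samples were the highest 3, and OT-1 alone and the macrophage co-culture overlapped. The difference was 0.13 (95% interval -0.08 to 0.33) in the tumor co-culture against OT-1 alone, -0.10 (95% interval -0.30 to 0.11) in the macrophage co-culture, and 0.22 (95% interval 0.02 to 0.43, adjusted p = 1 from limma) between the co-cultures.

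Jak2, a kinase that also binds gp130 and serves the interferon-γ and IL-12 receptors, varied least of the members across the 9 samples. In log2 counts it was at 10.03, 10.02 and 10.02 in OT-1 alone, 10.01, 9.93 and 9.89 in the macrophage co-culture, and 10.02, 9.98 and 10.13 in the tumor co-culture. Its largest difference, 0.10 between the co-cultures, had a 95% interval of -0.07 to 0.27. For the tumor co-culture against OT-1 alone the interval ran from -0.15 to 0.19.

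Stat3, the main STAT below gp130, had the largest difference of the members. Its log2 level was 11.00, 11.04 and 11.15 in OT-1 alone, 11.66, 11.31 and 11.58 in the macrophage co-culture, and 12.60, 12.53 and 12.45 in the tumor co-culture. The groups ran in that order with no overlap at either step. In the tumor co-culture Stat3 was higher than in OT-1 alone by 1.46 (SE 0.11, 2.76-fold, adjusted p = 4.45e-04 from limma), which ranked 32 of 750 by p and 54 of 750 by size. That difference was 0.95 to 1.51 over 21 alternative settings and passed in 20, the exception being centring of each sample on its median.

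Against the macrophage co-culture the same samples were higher in Stat3 by 1.01 (SE 0.11, 2.01-fold, adjusted p = 0.0136 from limma), ranking 13 of 750 by p, and the difference stayed between 0.82 and 1.20 over the 21 settings. The call was less stable than the size. It ended without tumor co-culture replicate 1, 2 or 3 (adjusted p = 0.113, 0.103 and 0.0533), without macrophage co-culture replicate 3 (0.0655) and without OT-1 alone replicate 1 or 2 (0.0514 and 0.0587), all from limma. With only the 2 co-cultures in the fit the adjusted p from limma was 0.210. Without macrophage co-culture replicate 2, the shallow sample, it was 0.00754 with a difference of 0.91.

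The step from OT-1 alone to the macrophage co-culture was 0.45 for Stat3 (95% interval 0.20 to 0.71), which did not pass (adjusted p = 0.134 from limma). Without macrophage co-culture replicate 2 it was 0.56 and passed (adjusted p = 0.0140 from limma), whereas centring each sample on its median turned it to -0.24. In that replicate Stat3 rested on 398 recovered counts, against 2912 and 3865 in the other samples of the group.

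Stat6, the STAT below IL-4Rα, ran in the same order over a narrower range. Log2 levels of Stat6 were 11.14, 11.13 and 11.20 in OT-1 alone, 11.34, 11.23 and 11.34 in the macrophage co-culture, and 11.61, 11.58 and 11.56 in the tumor co-culture. Again the groups did not overlap at either step. In the tumor co-culture Stat6 was higher than in OT-1 alone by 0.43 (SE 0.07, 1.34-fold, adjusted p = 0.0185 from limma). That difference was close to the 0.40 median of all genes and above the 0.21 median of the 371 genes of at least 100 normalized counts. The call ended under all 3 other scalings (differences of -0.083 to 0.12) and also when any 1 of the samples of OT-1 alone or of the tumor co-culture was left out (differences of 0.41 to 0.45, adjusted p of 0.0670 to 0.129 from limma). Stat6 differed by 0.15 (95% interval -0.01 to 0.31) in the macrophage co-culture against OT-1 alone and by 0.28 (95% interval 0.12 to 0.44, adjusted p = 0.379 from limma) between the co-cultures.

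**Figure D2:**
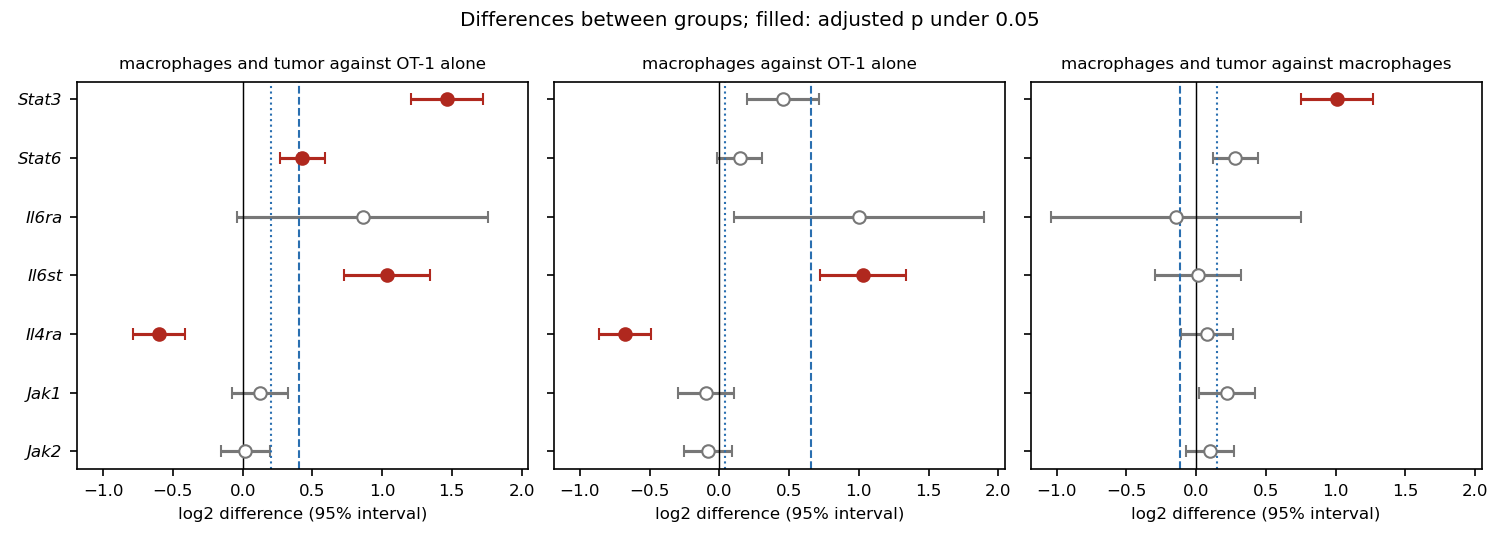
Log2 differences of the 7 genes in the 3 comparisons with their 95% intervals from limma (n = 3 samples per group), filled where the adjusted p is under 0.05. The dashed line is the median difference of all 750 genes and the dotted line that of the 371 genes of at least 100 normalized counts, and Stat3 lies to the right of both in the first and the third panel. Without macrophage co-culture replicate 2 the dashed line would stand at 0.20 in the macrophage co-culture against OT-1 alone and at 0.17 between the co-cultures.

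Counting groups with no overlap, 5 of 7 members separated in the tumor co-culture against OT-1 alone (57.1% of all genes), 4 above (43.5%) and 1 below (13.6%). In the macrophage co-culture 6 of 7 did (53.1% of all genes), 4 above (38.0%) and 2 below (15.1%). Among the 2 below was Jak2, whose highest value there was 10.01 against a lowest of 10.02 in OT-1 alone, a gap of the last decimal deposited. Among the 4 above was Il6ra, which rested there on 7 to 27 recovered counts per sample. Between the co-cultures 4 of 7 members separated (24.9% of all genes), all of them above (20.3%) and 0 below (4.67%). For 3 samples against 3, the two-sided exact permutation test gives p = 0.1 to each such gene, the smallest value it can give. When each sample was centred on the median of the 371 genes of at least 100 normalized counts, a setting chosen after the data were seen, Stat3 differed by 1.16 from OT-1 alone in the tumor co-culture (adjusted p = 0.00168 from limma) and by 0.84 between the co-cultures (adjusted p = 0.0396 from limma). Il6st then differed by 0.73 and 0.89 from OT-1 alone, and Il4ra fell by 0.90 and 0.81, all 4 past the threshold, and Stat6 differed by 0.12 and did not pass.

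A ratio of members within a sample does not depend on the factor by which that sample was scaled, though quantile normalization can change it. Stat3 minus Stat6, on the log2 scale and meaningful only as a change since the probes differ, was -0.14, -0.09 and -0.05 in OT-1 alone, 0.32, 0.08 and 0.24 in the macrophage co-culture, and 0.99, 0.95 and 0.89 in the tumor co-culture. The groups did not overlap, so the ratio of Stat3 to Stat6 was higher in each co-culture than in OT-1 alone and highest with tumor cells, whatever the factor of a sample. The 0.08 of macrophage co-culture replicate 2 rests on 398 and 377 recovered counts, with counting errors of 5.01% and 5.15%. This ratio was not tested, nor read after quantile normalization.

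**Figure D3:**
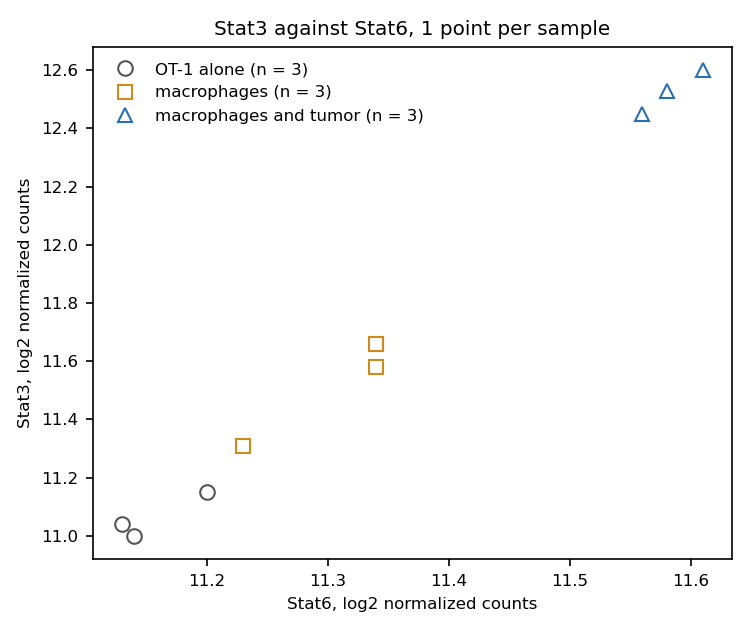
Log2 normalized counts of Stat3 against those of Stat6, 1 point per sample, with the group given by the symbol (n = 3 each). As deposited, both are lowest in OT-1 alone and highest in the tumor co-culture, and Stat3 spans 11.00 to 12.60 while Stat6 spans 11.13 to 11.61.

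Jak1 was taken as a common denominator after the values had been seen, since it was the member with the most counts. Relative to Jak1, Stat3 was higher by 1.34 in the tumor co-culture and by 0.55 in the macrophage co-culture than in OT-1 alone, and by 0.79 between the co-cultures, with no overlap in any of the 3. The ratio of Stat6 to Jak1 was higher by 0.30 and 0.24 than in OT-1 alone, without overlap, and the co-cultures overlapped, with a difference of 0.06. Il6st was higher by 0.91 and 1.12 and Il4ra differed by -0.72 and -0.58, again without overlap with OT-1 alone. Between the co-cultures the ratio of Il4ra to Jak1 differed by -0.14 without overlap, opposite in sign to the 0.08 of the Il4ra level itself. The ratio of Jak2 to Jak1 differed by -0.11 in the tumor co-culture against OT-1 alone, also without overlap. Over these 18 comparisons of ratios the smallest p that the exact permutation test allows, 0.1, becomes 0.15 after Benjamini-Hochberg adjustment, so none passed.

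**Figure D4:**
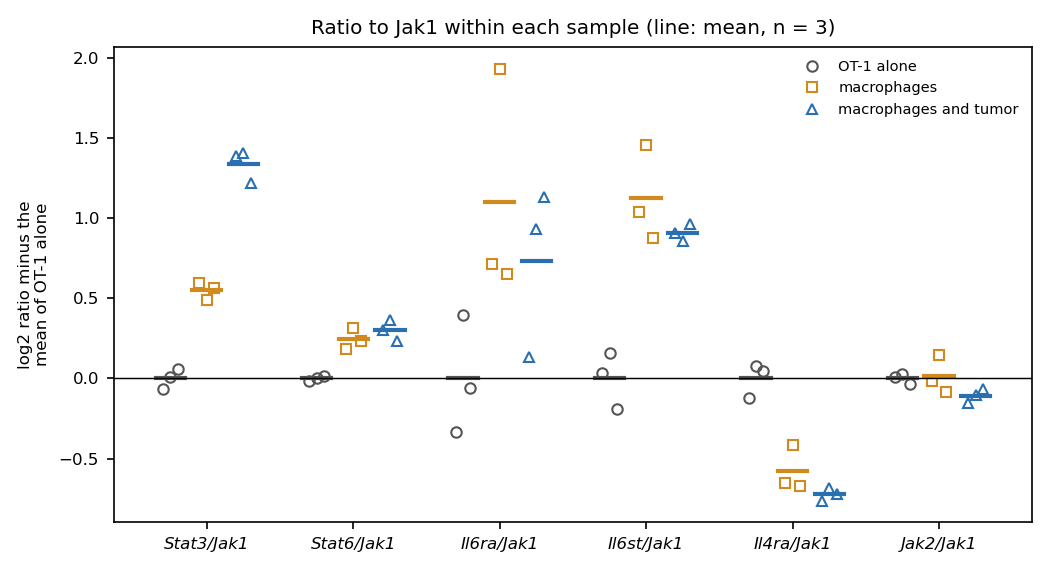
Log2 ratio of 6 genes to Jak1 in each of the 9 samples, set to 0 at the mean of OT-1 alone, with a line at each group mean (n = 3). The Stat3 ratio separates all 3 groups, with means of 0.55 and 1.34 in the co-cultures, and the Il6ra ratio of macrophage co-culture replicate 2 rests on 7 recovered counts.

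The genes whose pattern was most like Stat3 over the 9 samples were Stat6 (Pearson r = 0.997), Itgb3, which encodes integrin β3 (0.989), and Ripk2, a kinase of the NOD receptors (0.983). Those most like Stat6 were Stat3, Itgb3 (0.988) and Ripk2 (0.973). Those most like Il6st were Cd38, an NAD-consuming ectoenzyme (0.979), Lyn, a Src family kinase (0.978), and Runx1, a transcription factor (0.976). Those most like Il4ra were Tnfrsf8, which encodes CD30 (0.983), Il12rb1, an IL-12 receptor chain (0.978), and Slamf7 (0.978). These correlations are descriptions over 9 samples that share 3 groups and a scaling, and without macrophage co-culture replicate 2 they were 0.975 to 0.997 over 8 samples. Mean levels of Itgb3, to take the widest range among those like Stat3, were 7.44 in OT-1 alone, 8.25 in the macrophage co-culture and 9.57 in the tumor co-culture.

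Of the ligands of the IL-6 family, 6 of 10 listed were measured. Ebi3, the subunit of IL-27 that also pairs into IL-35, was higher than in OT-1 alone by 1.11 in the tumor co-culture (SE 0.08, adjusted p = 3.26e-04 from limma) and by 0.90 in the macrophage co-culture (adjusted p = 0.00102 from limma). Log2 levels of Ebi3 were 7.61, 7.66 and 7.72 in OT-1 alone, 8.64, 8.46 and 8.59 in the macrophage co-culture, and 8.78, 8.80 and 8.75 in the tumor co-culture, with no overlap between any of the groups. Centring on the medians lowered the differences to 0.60 and 0.20 and ended both calls (adjusted p = 1 from limma), and both held in the other 20 settings. The other 5 passed no test. Osm, which encodes oncostatin M, had a mean level of 7.45 ± 0.11 in OT-1 alone and 6.51 ± 0.07 in the tumor co-culture (SD, n = 3), without overlap, a difference of -0.95 (adjusted p = 1 from limma, the macrophage samples spanning 6.14 to 7.88). Il6 itself rested on 13 to 39 recovered counts, with mean levels of 4.08 ± 0.10 in OT-1 alone, 5.27 ± 0.96 in the macrophage co-culture and 4.87 ± 0.53 in the tumor co-culture (SD, n = 3). Il11, Lif and Il27 rested on 6 to 48 counts. These levels are those of the sorted CD8+ cells and do not measure what the macrophages or tumor cells secreted.

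Both type 2 ligands, Il4 and Il13, were measured at 10 to 30 counts, with differences of 0.38 and 0.71 in the tumor co-culture against OT-1 alone that did not pass. Of the other receptor chains, Il2rg, the common γ chain that pairs with IL-4Rα, had mean levels of 11.69 ± 0.04, 11.60 ± 0.23 and 11.92 ± 0.04 in OT-1 alone, the macrophage and the tumor co-culture (SD, n = 3), and passed no test. Il13ra1, Il13ra2 and Il11ra1 rested on 5 to 45 counts and passed none.

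Of the other JAKs and STATs, 5 of 6 listed were measured, and 2 of 5 were higher in the tumor co-culture than in OT-1 alone, where 14.5% of all genes were. Stat4, the STAT of the IL-12 receptor, had log2 levels of 9.47, 9.48 and 9.59 in OT-1 alone, 10.02, 9.97 and 10.13 in the macrophage co-culture, and 10.50, 10.43 and 10.51 in the tumor co-culture. It ran in the same order as Stat3 with no overlap. The difference from OT-1 alone was 0.97 (SE 0.08, adjusted p = 5.90e-04 from limma) in the tumor co-culture and 0.53 (adjusted p = 0.0136 from limma) in the macrophage co-culture. Over the 21 alternative settings the first call held in 20 and the second in 14. Among other settings, the second call ended without macrophage co-culture replicate 3 (0.0676) or OT-1 alone replicate 1 or 2 (0.0900 and 0.0949). Centring samples on their medians turned the second difference to -0.17, lowered the first to 0.46 and ended both calls (adjusted p = 1 from limma for the first). Jak3, the kinase of the common γ chain, was higher by 0.64 (SE 0.09, adjusted p = 0.0103 from limma) and 0.47 (adjusted p = 0.0488 from limma). Both Jak3 calls were lost in several fits that left out a sample, the first without tumor co-culture replicate 1 or 3 or OT-1 alone replicate 1 or 2 (0.0548 to 0.0690) and the second in every such fit but the one without macrophage co-culture replicate 2 (0.0919 to 0.244), and centring on the medians lowered the first to 0.13 (adjusted p = 1 from limma) and turned the second to -0.22. The first was also lost after centring on genes of at least 100 normalized counts (0.34) and after quantile normalization (0.28). Tyk2, Stat2 and Stat5b passed no test, with differences of 0.49, -0.16 and 0.31 in the tumor co-culture against OT-1 alone.

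Of the inhibitors of the pathway, 2 of 10 listed were measured. Socs1, which binds and blocks JAK kinases, had log2 levels of 10.08, 10.17 and 10.04 in OT-1 alone, 8.43, 8.90 and 8.51 in the macrophage co-culture, and 8.69, 8.60 and 8.53 in the tumor co-culture. OT-1 alone lay above both co-cultures by more than 1 log2 unit in every sample. Socs1 fell by 1.49 (SE 0.13, adjusted p = 9.77e-04 from limma) in the tumor co-culture and by 1.48 (SE 0.13, adjusted p = 0.00128 from limma) in the macrophage co-culture, and both calls held in all 21 alternative settings. Between the co-cultures the difference was -0.01 (95% interval -0.32 to 0.30). Socs3, the inhibitor that docks on gp130 and a classic STAT3 target, rested on 12 to 36 counts and had mean levels of 4.69 ± 0.29, 4.80 ± 1.31 and 4.70 ± 0.18 (SD, n = 3), with a 95% interval of -1.38 to 1.40 for the tumor co-culture against OT-1 alone.

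**Figure D5:**
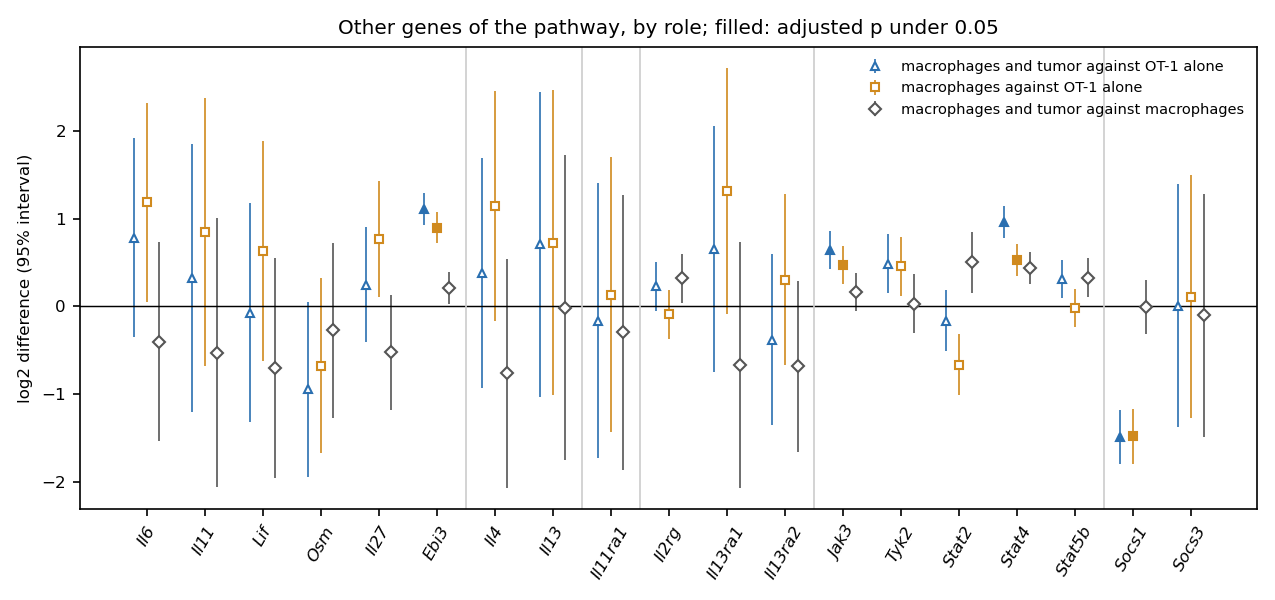
Log2 differences with 95% intervals from limma for 19 other genes of the pathway, grouped by vertical lines into ligands of the IL-6 family, type 2 ligands, receptor chains of each family, kinases and STATs, and inhibitors, filled where the adjusted p is under 0.05. Ebi3, Jak3 and Stat4 are filled above 0 and Socs1 below 0, and the widest intervals belong to genes of few counts.

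Receptors that also signal through STAT3 were measured for 5 of 7 listed. Il21r, the receptor of IL-21, was higher by 0.51 (SE 0.08, adjusted p = 0.0117 from limma) in the tumor co-culture than in OT-1 alone, and the call ended without tumor co-culture replicate 1 or 2 or OT-1 alone replicate 1 or 3 (0.0751 to 0.0821). It also ended under all 3 other scalings, with differences of 0.21 and 0.23 after centring on genes of at least 100 normalized counts and quantile normalization, and of 0 after centring on the medians. Il10ra differed by 0.50 (adjusted p = 0.0576 from limma). Il23r, Il22ra1 and Csf3r did not pass, nor did the cytokines Il10, Il21, Il22 and Il23a.

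Of 24 listed genes that STAT3 is known to bind or induce in some cell type, 18 were measured, and 2 were higher, 1 was lower and 15 did not pass in the tumor co-culture against OT-1 alone, where 14.5% of all genes were higher and 3.87% lower, so that the share called was close to that of all genes. The median difference of the 18 was -0.10, against 0.40 over all genes and 0.21 over the 371 genes of at least 100 normalized counts. Hif1a, an oxygen-sensing and glycolytic regulator, had log2 levels of 11.83, 11.86 and 11.95 in OT-1 alone, 12.04, 11.82 and 11.96 in the macrophage co-culture, and 12.56, 12.48 and 12.51 in the tumor co-culture. The tumor samples alone stood apart. Hif1a was higher by 0.64 (adjusted p = 0.00651 from limma) than in OT-1 alone and by 0.58 (adjusted p = 0.0459 from limma) than in the macrophage co-culture, the second call ending in every fit that left out a sample other than macrophage co-culture replicate 2 (0.0816 to 0.289). The first call was lost when samples were centred on their medians (0.13, adjusted p = 1 from limma) or on genes of at least 100 normalized counts (0.33, adjusted p = 0.175 from limma), and the second under all 3 other scalings (0.31 to 0.76).

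Fos, a subunit of AP-1, was at 4.90, 5.56 and 5.84 in OT-1 alone and at 9.15, 8.12 and 8.42 in the tumor co-culture on the log2 scale. Among the samples in the macrophage co-culture it was at 6.34, 8.40 and 6.64, the second being the shallow replicate with 53 recovered counts. It was higher by 3.13 in the tumor co-culture than in OT-1 alone (SE 0.58, adjusted p = 0.0382 from limma). That call ended when macrophage co-culture replicate 3 or any 1 sample of OT-1 alone or of the tumor co-culture was left out (0.0696 to 0.176), and a floor of 100 normalized counts lowered the difference to 1.92 (adjusted p = 0.254 from limma).

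Ccnd3, which encodes cyclin D3, fell by 0.86 (adjusted p = 7.16e-04 from limma) in the tumor co-culture and by 0.84 (adjusted p = 0.00104 from limma) in the macrophage co-culture, and centring on the medians moved the differences to -1.37 and -1.53 and ended both calls (adjusted p = 0.171 and 0.0693 from limma). In the macrophage co-culture, limma called 0 of 18 higher (2 at an unadjusted p under 0.05) and 3 lower, Ccnd3 beside Bcl2, a survival factor (-0.85, adjusted p = 0.0272 from limma), and Cebpb (-0.51, adjusted p = 0.0310 from limma), where 11.9% of all genes were higher and 6.53% lower. The Bcl2 call ended in every fit that left out a sample but those without macrophage co-culture replicate 2 or 3 (0.0631 to 0.133), and the Cebpb call in every one but that without macrophage co-culture replicate 2 (0.0586 to 0.168). The list mixes targets of many cell types and does not measure STAT3 activity in these cells.

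Of 16 listed targets of STAT6, 14 were measured. Against OT-1 alone, limma called 0 higher and 1 lower in each co-culture (1 and 3 higher at an unadjusted p under 0.05, and 1 lower in each), and the gene that fell was Socs1, which is also among the inhibitors above. The median difference was 0.34 in the tumor co-culture and 0.89 in the macrophage co-culture, against 0.40 and 0.66 over all genes. Without macrophage co-culture replicate 2, the second was 0.20 for the list and 0.20 over all genes.

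Markers of the cells in the co-culture were read beside these results, since macrophages also transcribe Stat3, Stat6, Il6st and Il4ra. Summed normalized counts of 15 measured macrophage markers of 16 listed ran from 444 to 581 in OT-1 alone, from 534 to 1614 in the macrophage co-culture and from 659 to 769 in the tumor co-culture. The highest sum was that of the shallow macrophage co-culture replicate 2. None of the macrophage, tumor or B cell markers was at 0 in any sample, so a value above 0 does not by itself show such cells. In OT-1 alone the median log2 level was 4.03 to 4.42 over the macrophage markers and 3.15 to 3.98 over the B cell markers. In the tumor co-culture limma called 0 of 15 (1 at an unadjusted p under 0.05), and in the macrophage co-culture 1, Tlr2 (0.99, adjusted p = 0.0429 from limma). The mean log2 levels of the defining markers in OT-1 alone, the macrophage and the tumor co-culture were 4.02, 4.98 and 4.74 for Csf1r, 3.27, 5.08 and 4.59 for Emr1, 5.49, 6.50 and 6.39 for Cd14, and 4.73, 5.55 and 4.85 for Fcgr1. In the macrophage co-culture the SDs (n = 3) were 1.52, 1.39, 1.29 and 1.37, and without replicate 2 the means were 4.13, 4.33, 5.76 and 4.76. Summed counts of 12 tumor or mesenchymal markers were 275 to 381, 298 to 1333 and 384 to 476, with 0 of 12 called by limma in any comparison (0, 1 and 0 at an unadjusted p under 0.05). In the same order of groups, mean log2 levels were 4.13, 5.35 and 4.84 for Fn1 and 3.04, 4.55 and 3.82 for Col1a1. They were 3.38, 4.77 and 4.70 for Col3a1 and 4.61, 5.63 and 5.18 for Col4a1, these 4 being the defining markers. In the tumor co-culture 5 of the 12 did not overlap OT-1 alone (57.1% of all genes). For 7 B cell markers the sums were 124 to 161, 156 to 548 and 160 to 220, again with 0 of 7 called (0, 3 and 0 at an unadjusted p under 0.05). The highest of both sums was again that of macrophage co-culture replicate 2, the other samples of that group having 298 and 314 for the first list and 156 and 196 for the second. The part of RNA from macrophages or tumor cells in the member differences was not tested.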

How the data were processed

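The authors counted RNA of 9 samples with the PanCancer Immune Profiling Panel of nCounter and normalized the counts in nSolver. The values are log2 normalized counts that the authors deposited for 750 genes with 2 decimals, and the build behind the probes is not given in the sources used here. Raw counts were not used here. In every sample, 100% of the values below 30 fell, within the rounding, on whole multiples of 1 step, so counts per sample were recovered by dividing by that step. The step rested on only 12 such values in macrophage co-culture replicate 2, against 160 to 326 in each other sample. Recovered counts describe depth and entered no test. Counting error alone is 25.0% at 16 counts. Replicates all differed by more than sampling noise (1.95 to 26.1 for chi-square over its degrees of freedom), and none was merged.

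Samples were grouped by title. With limma 3.58.1 under R 4.3.3, 1 mean per group was fitted by lmFit and eBayes over all 9 samples and all genes, without a filter. Two-sided p-values of all 750 genes were adjusted after Benjamini and Yekutieli, as in the study's own analysis, with a threshold of 0.05. Group means of each member and of each ratio to Jak1 were also compared with an exact permutation test. The procedure was tested on simulated data. Alternatives changed the scaling, the floor on low values, the adjustment, the fit and the samples, 21 settings in all. The members and the gene lists were chosen with earlier results of these data known. The text names all 7 members, each measured ligand, receptor chain, JAK, STAT and inhibitor of the lists, STAT targets past the threshold, the 3 genes most like each member that passed, and marker genes, and 1 listed gene is not reported here. Windows at start sites were taken from RefSeq on GRCm38.p6 and searched on both strands. No protein sequence was used here.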

Additional observations from a re-analysis of the deposited data

How the results depend on the processing

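Over the alternatives, Stat3 in the tumor co-culture passed in 20 of 21 settings against OT-1 alone and in 11 against the macrophage co-culture, Stat6 against OT-1 alone in 11, Il6st in 18 in the tumor and 16 in the macrophage co-culture, and Il4ra in 18 and 19, while Il6ra, Jak1 and Jak2 passed in 0. Stat3 kept its sign in both comparisons of the tumor co-culture, as Il6st and Il4ra did against OT-1 alone. Of the other pathway genes called in the tumor co-culture against OT-1 alone, Jak3 passed in 14 settings, Il21r in 13, Fos in 11 and Hif1a in 19. In the macrophage co-culture against OT-1 alone Jak3 passed in 8, Bcl2 in 10 and Cebpb in 7. Between the co-cultures Hif1a passed in 7. Centring each sample on its median left 0 members past the threshold in all 3 comparisons, with 28, 37 and 0 of all genes (2, 1 and 1 members and, in the third, 62 genes at an unadjusted p under 0.05, against 138, 138 and 24 genes called as deposited, the first comparison being the tumor co-culture and the second the macrophage co-culture, each against OT-1 alone, and the third the tumor against the macrophage co-culture). It turned Stat6 to -0.083, Jak1 to -0.38 and Jak2 to -0.49 in the first comparison, Stat3 to -0.24, Stat6 to -0.55, Jak3 to -0.22 and Stat4 to -0.17 in the second and Il6ra to 0.042 in the third. It moved macrophage co-culture replicate 2 the most, whose median level was 7.80 against 6.09 to 6.88 in the other samples. Centring on genes of at least 100 normalized counts, chosen after the data were seen, turned Jak1 to -0.18 and Jak2 to -0.28 in the first and Il6st to -0.16, Il4ra to -0.087 and Jak2 to -0.067 in the third. Quantile normalization left 2 and 1 members in the first 2 comparisons and turned Jak1 to -0.065 and Jak2 to -0.28 in the first and Il6ra to 0.27, Il4ra to -0.057, Jak1 to -0.056 and Jak2 to -0.12 in the third. A floor of 100 normalized counts left 1 member in the second comparison and gave 2 members and 42 genes in the third. Benjamini-Hochberg adjustment gave 226 genes in the second and 62 in the third. Fits of only the groups compared gave 73 genes and 0 members in the second (4 members at an unadjusted p under 0.05) and 0 and 0 in the third (106 and 2). The methods' t-test, which the study names for granzyme B and Fas ligand among these counts, gave 80 genes and 1 member in the second. In the third it gave 0 and 0 (136 and 2), with 0 markers of macrophages, tumor cells or B cells in any comparison. Array weights gave 280, 301 and 131 genes, 4 members in the second and 2 in the third, and turned Il6ra to 0.0078 in the third. Limma-trend gave 66 genes and 2 members in the third. With the sample number as a replicate block the third comparison gave 10 genes and 0 members (3 at an unadjusted p under 0.05), and Stat6 in the first (adjusted p = 0.0858) and Stat3 in the third (adjusted p = 0.0858) no longer passed. Same-numbered samples correlated between -0.37 and 0.46 in their deviations, so the numbers were not taken as a pairing. Leaving out 1 sample gave 96 to 223 genes and 2 to 4 members in the first comparison, 83 to 170 genes in the second, and 11 to 34 genes and 0 to 1 members in the third. It turned Jak2 to -0.023 in the first comparison (without tumor co-culture replicate 3; up to 0.052 otherwise) and, in the third, Il6ra to 0.15 (without tumor co-culture replicate 1) or 0.20 (without macrophage co-culture replicate 2) and Il6st to -0.04 (without tumor co-culture replicate 3) or -0.09 (without macrophage co-culture replicate 3), with up to 0.105 in the other fits of Il6st and down to -0.37 in those of Il6ra. The causes of these shifts were not tested. Il6ra, Socs3 and the ligands other than Ebi3 and Osm rested on few counts in every sample, whether from depth or from low RNA was not tested, and 1 recovered count stood for 6.38 normalized counts in macrophage co-culture replicate 2.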
